A study of Homo sapiens with 4 samples.

Results

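The genes described here encode proteins that bind GATA factors or act in complexes with them. The 9 genes are ZFPM1 and ZFPM2 (the friend of GATA, or FOG, proteins), LMO2, LMO4 and LDB1 (LIM-only proteins and their bridging partner), TAL1 and LYL1 (basic helix-loop-helix, bHLH, proteins), and RUNX1 and CBFB (the core binding factor). They are 9 of 20033 protein-coding genes on the chromosomes in GENCODE release 44. The rule names the genes and uses no measured value, but the genes were chosen with earlier results of these data known. For each, the GATA3 positions within 100 kb of the hg38 5′ end of the gene, in its body, or carrying its symbol in the authors' annotation were collected. A position of replicate 1 and a position of replicate 2 within 100 bp of each other were joined into a shared region, centred on their mean.

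GATA3 binding was mapped by ChIP-seq in H1, an established human embryonic stem cell line, after 6 h of BMP4 at 50 ng/ml. The series held 2 GATA3 ChIP samples, which are biological replicates by the study's methods, and 2 samples of input chromatin from cells treated in the same way. An untreated GATA3 ChIP was not analysed here, so no response to BMP4 can be read from these values. Input entered only through the authors' peak calling, and the files listed a position and a gene name for each peak, with no height or width.

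GATA factors bind the core letters GATA through a pair of zinc fingers, and the amino-terminal finger also contacts FOG proteins, which can turn a GATA factor towards repression or activation. In blood precursors, LMO2 joins a GATA factor to TAL1 or its relative LYL1, each paired with an E protein on an E-box, and LDB1 binds the LIM-only protein and can self-associate to bring distant elements together. RUNX1 binds DNA with the aid of CBFB, which does not contact DNA itself, and meets GATA factors at many blood cell enhancers. These complexes are known mainly from blood and endothelium, and the data here concern where GATA3 lay near the genes, not whether the proteins were made or bound to GATA3.

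Of the 9 genes, 7 had at least 1 shared region (77.8%, exact 95% binomial interval 40 to 97.2), against 47.7% of all protein-coding genes under the same rule. The same 7 had a replicate 1 position, against 68.7% of protein-coding genes, and a replicate 2 position, against 57.3%. ZFPM1, ZFPM2, LMO4, LDB1, TAL1, LYL1 and RUNX1 had shared regions, and LMO2 and CBFB had no position in either replicate. Each background share lies within the interval of the 9 genes. In all, 34 of 18456 positions of replicate 1, 27 of 12782 positions of replicate 2 and 17 of 9145 shared regions lay at these genes. RUNX1 held 9 of the 17.

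The GATA recognition hexamer was taken as the core GATA with A or T before it and A or G after it, such as AGATAA, on either strand (a match on the minus strand reads TTATCT, for example). Windows of 200 bp centred on the shared regions were read from hg38. At ZFPM1, LMO4, LDB1, TAL1 and LYL1 the windows are given because they are the shared regions that remain when the gene is taken as its canonical transcript, and they hold from 0 to 2 hexamers. They are written on the plus strand with hexamers in capitals.
ZFPM1, intron 1, chr16:88455078-88455277: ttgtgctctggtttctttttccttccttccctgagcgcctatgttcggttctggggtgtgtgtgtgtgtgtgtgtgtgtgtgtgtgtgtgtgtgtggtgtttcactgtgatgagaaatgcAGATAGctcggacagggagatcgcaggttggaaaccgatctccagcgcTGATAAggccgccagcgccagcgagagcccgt
ZFPM1, intron 2, chr16:88488174-88488373: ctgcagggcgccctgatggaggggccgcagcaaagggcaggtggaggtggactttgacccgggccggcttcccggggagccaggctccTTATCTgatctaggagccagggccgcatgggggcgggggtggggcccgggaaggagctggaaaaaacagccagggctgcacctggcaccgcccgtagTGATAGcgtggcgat
LMO4, intron 2, chr1:87334744-87334943: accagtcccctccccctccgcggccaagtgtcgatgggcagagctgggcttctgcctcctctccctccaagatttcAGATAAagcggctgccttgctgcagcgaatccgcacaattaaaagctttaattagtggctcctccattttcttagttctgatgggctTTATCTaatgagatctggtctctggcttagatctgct
LDB1, upstream, chr10:102164066-102164265: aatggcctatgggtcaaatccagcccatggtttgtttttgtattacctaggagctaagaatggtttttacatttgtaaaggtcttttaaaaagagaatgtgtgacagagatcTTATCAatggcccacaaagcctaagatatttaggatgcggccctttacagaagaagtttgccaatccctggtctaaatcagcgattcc
TAL1, intron 3, chr1:47224858-47225057: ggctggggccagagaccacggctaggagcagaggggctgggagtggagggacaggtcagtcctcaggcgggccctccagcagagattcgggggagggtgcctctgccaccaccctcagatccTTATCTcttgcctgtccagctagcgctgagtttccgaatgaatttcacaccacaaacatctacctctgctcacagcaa
LYL1, downstream, chr19:13051675-13051874: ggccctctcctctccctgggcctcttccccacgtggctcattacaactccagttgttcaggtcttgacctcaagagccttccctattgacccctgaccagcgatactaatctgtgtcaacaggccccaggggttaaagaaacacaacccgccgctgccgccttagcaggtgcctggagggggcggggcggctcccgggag
Those 6 windows differ in where the hexamer stands. In the LDB1 window it lies 15.5 bp from the centre, in the TAL1 window 25.5 bp, and in the LYL1 window there is none. From RUNX1, the only region within the canonical transcript is shown with 2 others from the gene body, which have the nearest hexamer 2.5 and 64.5 bp from the centre.
RUNX1, intron 3, chr21:34891203-34891402: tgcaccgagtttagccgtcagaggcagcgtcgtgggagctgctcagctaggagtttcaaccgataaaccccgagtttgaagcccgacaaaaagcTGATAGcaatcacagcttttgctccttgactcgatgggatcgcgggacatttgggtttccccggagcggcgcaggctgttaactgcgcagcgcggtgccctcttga
RUNX1, gene body upstream of the canonical transcript, chr21:35470510-35470709: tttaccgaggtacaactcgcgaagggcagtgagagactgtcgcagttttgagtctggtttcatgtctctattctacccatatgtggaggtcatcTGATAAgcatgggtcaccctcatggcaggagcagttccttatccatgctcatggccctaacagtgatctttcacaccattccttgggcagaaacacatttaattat
RUNX1, gene body upstream of the canonical transcript, chr21:35628386-35628585: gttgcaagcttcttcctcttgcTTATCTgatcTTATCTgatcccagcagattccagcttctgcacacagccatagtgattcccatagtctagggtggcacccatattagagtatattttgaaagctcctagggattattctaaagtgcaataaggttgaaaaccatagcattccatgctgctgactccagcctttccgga

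**Figure D1:**
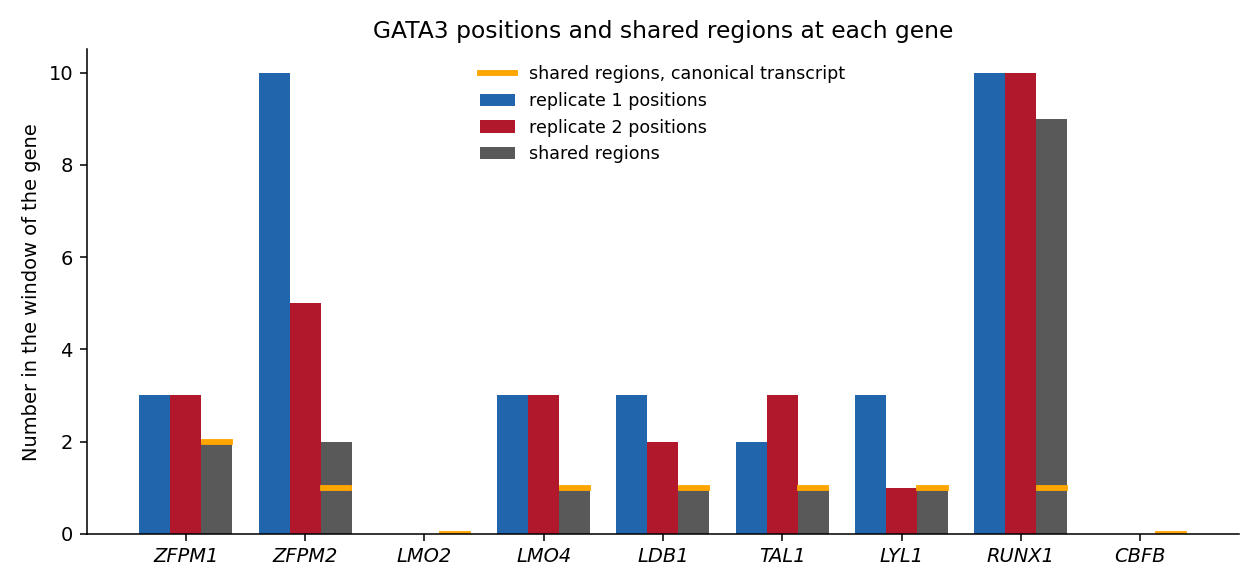
Number of GATA3 positions of replicate 1 (blue) and replicate 2 (red) and of shared regions (grey) in the window of each gene, with orange lines for shared regions when the canonical transcript stands for the gene. RUNX1 had 9 shared regions by the gene record and 1 by the canonical transcript, and LMO2 and CBFB had 0 in every count.

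RUNX1 and ZFPM2 have very long records, which bears on every count above. The RUNX1 record runs from 34787801 to 36004667 on the minus strand of chromosome 21, and its 5′ end lies 955 kb upstream of the start of the canonical transcript at 35049302. Of its 18 transcripts, 5 start more than 1 kb upstream of the canonical start, and 1 of these 5, RUNX1-214, is annotated as protein-coding. The ZFPM2 record begins 728 kb upstream of its canonical start, through 2 of 10 transcripts, 0 of them annotated as protein-coding. The windows of RUNX1 and ZFPM2 therefore spanned 1317 and 1314 kb, while the other 7 genes had only the 100 kb to either side of their 5′ ends. With the canonical transcript as the gene, the genes with a shared region were still 7 of 9, against 47.3% of protein-coding genes, but the shared regions fell from 17 to 8.

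The FOG genes had equal numbers of shared regions and unequal numbers of positions. ZFPM1 (chromosome 16, 88453280 to 88537031, plus strand) had 3 positions in replicate 1, 3 in replicate 2 and 2 shared regions. ZFPM2 had 10 positions in replicate 1, 5 in replicate 2 and 2 shared regions. The share of positions that were shared at ZFPM2 was 20% in replicate 1 (2 of 10, exact 95% interval 2.52 to 55.6) and 40% in replicate 2 (2 of 5, 5.27 to 85.3). Over all positions the shares were 49.6% and 71.5%, and both intervals at ZFPM2 are wide enough to hold them.

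The first ZFPM1 region stood in intron 1, 1.90 kb downstream of the 5′ end, where both replicates gave the position 88455177. Replicates agreed to the base in 1.15% of all shared regions (105 of 9145). The hexamers AGATAG and TGATAA lie 23.5 and 71.5 bp from this position, and a TGTGGT, the letters that RUNX proteins prefer, ends 2 bases before it, at 88455170 to 88455175. The window printed above also holds a run of 40 bp of 1 repeated dinucleotide, to which 4 of the 6 letters of the TGTGGT belong. The run is as long as or longer than in all but a few shared regions (19 of 9145, 0.208%, have a run of this length or more). The window shares a stretch of 20 letters or more, not necessarily the same one, with each of 59 other shared regions, on either strand. The second ZFPM1 region stood in intron 2, 35.0 kb downstream of the 5′ end, with replicate positions 88488260 and 88488287. Its nearest hexamer, TTATCT, lies 8.5 bp from the centre, and its GC content of 68.5% was the highest of the 17. The unshared positions of ZFPM1 lay at 88543662 in replicate 1, past the 3′ end and nearer to the 5′ end of ZC3H18 (26.7 kb), and at 88462104 in replicate 2, in intron 1.

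At ZFPM2, the shared region at 105216572 in replicate 1 and 105216627 in replicate 2 lay upstream of the canonical start, just outside the 100 kb that the canonical rule allows. Its window shares a stretch of at least 20 letters with each of 124 other shared regions on 21 chromosomes, and 99.2% of those 124 hold a hexamer. The stretch need not be the same in each. Sharing such a stretch with another region was common, found in 30.3% of all shared regions and 5 of the 17 here, but only 14.1% shared with 20 or more others. Reads that aligned to more than 1 place had been removed by the authors, and the part this played at recurring sequences was not tested. The other ZFPM2 region lay in intron 4, 315 kb downstream of the canonical start and within the antisense gene ZFPM2-AS1. Its replicate positions, 105633872 and 105633970, were 98 bp apart, and 99.6% of all shared regions had positions as close or closer. The unshared replicate 1 position nearest to the canonical start, 105322134, was 3.70 kb into intron 1 and had 4 hexamers in its 200 bp. The replicate 2 position at 105283700, 34.7 kb upstream of the canonical start, had 18 hexamers in its 200 bp, and 10 of the 12782 positions of that replicate (0.0782%), itself included, had as many or more.

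**Figure D2:**
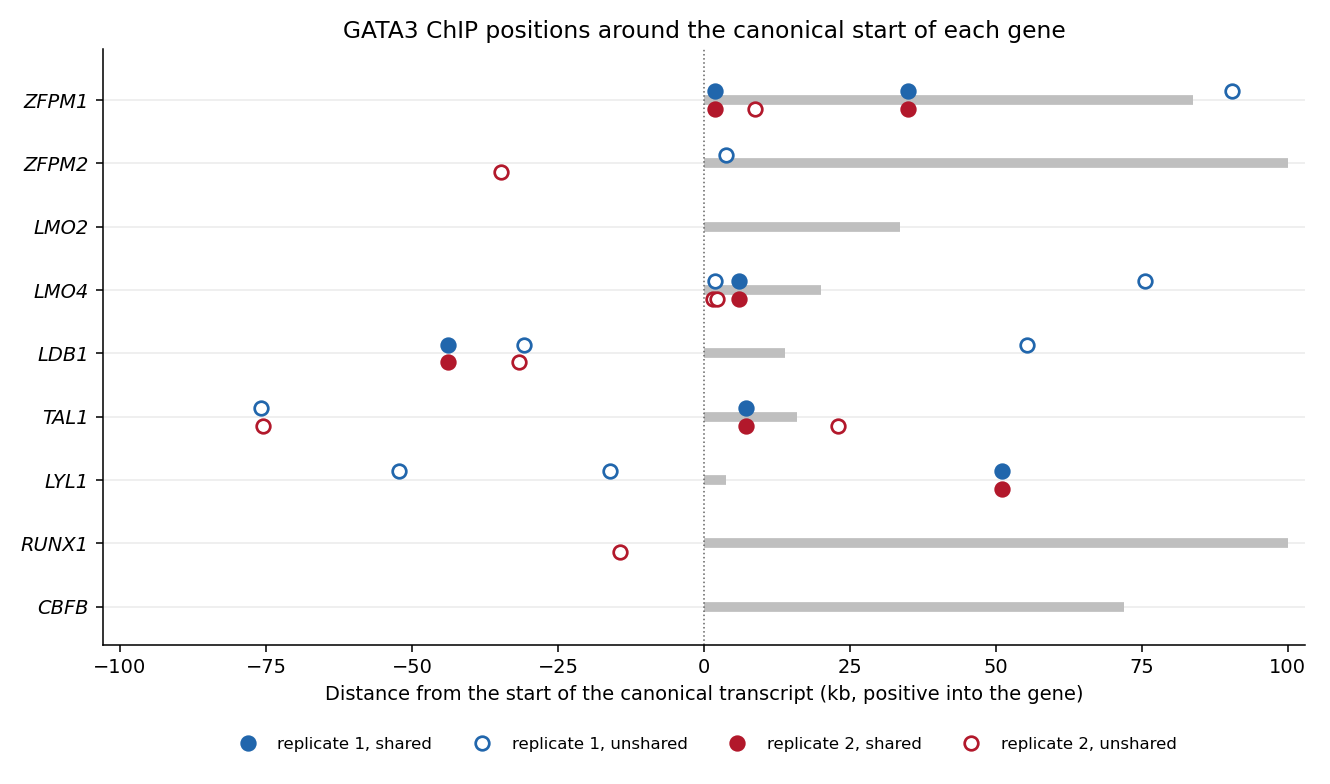
GATA3 positions within 100 kb of the canonical start of each gene (x axis, kb, positive values into the gene), with replicate 1 above and replicate 2 below each line, filled where shared. Grey bars mark the canonical transcript, drawn to at most 100 kb. LMO2 and CBFB have no point, and the points of ZFPM2 and RUNX1 in this span are unshared.

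Among the LIM-only and bridging genes, LMO4 and LDB1 each had 1 shared region and LMO2 had none. LMO4 (chromosome 1, 87328880 to 87348923, plus strand) encodes a LIM-only protein made in many epithelial and neural tissues. Its shared region stood in intron 2, 5.96 kb downstream of the 5′ end, with replicate positions 87334857 and 87334830. The hexamer AGATAA lies 20.5 bp to its left and TTATCT 66.5 bp to its right, and both are of the AGATAA form. Intron 1 of LMO4 held 3 more positions that the rule left unshared. Replicate 1 listed 87330741, and replicate 2 listed 87330374 and 87331104, which are 367 and 363 bp away from it. The mean of the replicate 2 pair is 87330739, 2 bp from the replicate 1 position, so intron 1 was listed in both replicates although no pair came within 100 bp. The last LMO4 position, 87404466 in replicate 1, lay 75.6 kb from the 5′ end.

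LDB1 (chromosome 10, 102106489 to 102120368, minus strand) encodes the adaptor that links LIM-only proteins with one another. Its shared region stood 43.8 kb upstream of the 5′ end, with replicate positions 102164164 and 102164166, and the 5′ end of NOLC1 was nearer, at 12 kb. The hexamer TTATCA at 102164178 to 102164183 begins the only match among the 17 regions to a TG with 7 or 8 bases between it and GATA. The pattern was searched on both strands, and its GATA part overlaps the core motif. It was meant to mark TAL1 and GATA proteins bound together. Other spacings were not searched, so its counts are not counts of such joint sites. The other LDB1 positions were near the starts of neighbours. Replicate 1 had 102151217 and replicate 2 had 102152001, 784 bp apart and 0.959 and 0.175 kb from the 5′ end of NOLC1, and replicate 1 had 102065022, 0.327 kb from that of HPS6.

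LMO2 (chromosome 11, 33858576 to 33892076, minus strand), the bridging protein of the blood complex, had no position within 100 kb of its 5′ end. The nearest positions to its 5′ end were 349 kb away in replicate 1 and 224 kb away in replicate 2, both downstream, and the nearest shared region was 349 kb away. Among 18531 protein-coding genes with windows of like length (within 1.5-fold), 45.4% had a shared region. Without depth or peak height, an absent position says only that no peak was listed there.

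The bHLH genes each had 1 shared region. TAL1 (chromosome 1, 47216290 to 47232225, minus strand) encodes a regulator of blood and endothelial fate. Its region stood in intron 3, 7.27 kb downstream of the 5′ end, with replicate positions 47224968 and 47224947. It lay 0.881 kb upstream of the start of a shorter transcript, TAL1-203, whose coding sequence is not defined. The hexamer TTATCT lies 25.5 bp from the centre, and ACCACA, the RUNX letters on the minus strand, is at 47225028 to 47225033. Inside the upstream neighbour STIL (47250139 to 47314892, minus strand) the replicates gave 47308038 and 47307808.5, which are 229.5 bp apart and 6.85 and 7.08 kb from the 5′ end of STIL. Replicate 2 alone had 47209227, past the 3′ end of TAL1 and 18.2 kb from the 5′ end of PDZK1IP1.

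LYL1 (chromosome 19, 13099033 to 13103161, minus strand) is a close relative of TAL1 in blood cells. Its shared region, with replicate positions 13051753 and 13051796, stood 51.4 kb downstream of the 5′ end, inside intron 2 of the neighbour NFIX. This window had no hexamer and a single GATA core, and 3 E-boxes (CANNTG), more than any of the other 16. Replicate 1 also had 13118893, 1.33 kb from the 5′ end of TRMT1, and 13155130, 4.72 kb from that of IER2. All of the LYL1 positions were in or near other genes.

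By its gene record RUNX1 had the most shared regions of the 9 genes, though by the canonical transcript it had 1, against 2 at ZFPM1. Of its 10 positions in each replicate, 9 were shared (90%, exact 95% interval 55.5 to 99.7, in both), against 49.6% and 71.5% of all positions. The interval holds the second share and not the first. The shares of both replicates count the same 9 pairs, and the interval takes positions at 1 gene as independent. RUNX1 is also the gene with the most shared regions by the gene record, so the interval is a description and no test. At the 7 genes other than RUNX1 and ZFPM2, 6 of 14 positions of replicate 1 (42.9%, 17.7 to 71.1) and 6 of 12 of replicate 2 (50%, 21.1 to 78.9) were shared, and these intervals overlap that of RUNX1. Only 0.0899% of protein-coding genes had 9 or more shared regions, but the RUNX1 window is among the 98 that exceed 1 Mb. Among the 127 protein-coding genes with windows within 1.5-fold of its length, the median was 3 regions, 96.1% had at least 1, and 6.3% had 9 or more. ZFPM2, with a window of nearly the same length, had 2, and 84.3% of those genes had as many.

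**Figure D3:**
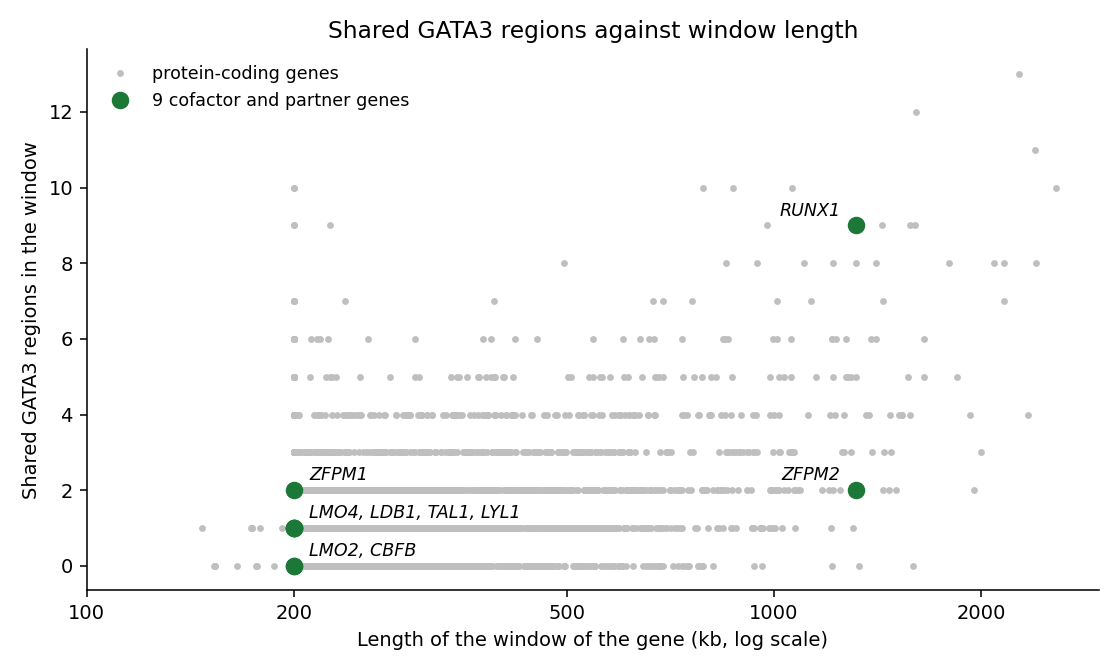
Shared GATA3 regions (y axis) against window length in kb (x axis, log scale) for protein-coding genes (grey) and the 9 genes (green, named). RUNX1, with 9 regions in 1317 kb, lies above ZFPM2, with 2 in 1314 kb, and the other 7 genes lie at the short windows with 0 to 2.

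The 9 RUNX1 regions fell into 3 groups by place. The first group is the region in intron 3 of the canonical transcript, with replicate positions 34891310 and 34891294, 158 kb downstream of the canonical start. RUNX1 is known to be transcribed from a distal and a proximal promoter. The proximal transcripts RUNX1-202 and RUNX1-203 start at 34888690, and this region lay 2.61 kb upstream of that start and 1.51 kb upstream of the start of RUNX1-204. The hexamer TGATAG covers the centre, 2.5 bp from it. The second group is 5 regions spread over 227 kb of the gene body upstream of the canonical transcript, from 352 to 579 kb beyond its start. Their replicate 1 positions were 35401757, 35438670, 35470629, 35507316 and 35628475, and those of replicate 2 were 35401740, 35438654, 35470589, 35507312 and 35628495. Each of the 5 held a hexamer, and the last held a pair of TTATCT copies at 74.5 and 64.5 bp on the left of the centre. For 4 of the 5 the nearest canonical start of a protein-coding gene was that of RUNX1, and for the last it was that of SETD4, at 432 kb.

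The third group is 3 regions packed into 6.79 kb beyond the 5′ end of the RUNX1 record, starting 92.3 kb upstream of it, and within the noncoding gene CBR1-AS1. For the outer regions, replicate 1 listed 36096923.5 and 36103726, and replicate 2 listed 36096917.5 and 36103704. A value with a decimal lies between adjacent bases, as the files give it. The 5′ end of SETD4 was nearer to both, at 17.5 and 24.3 kb. Of the unshared RUNX1 positions, replicate 1 had 35400651, 1089 bp from the nearest replicate 2 position, and replicate 2 had 35063645, 14.3 kb upstream of the canonical start.

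**Figure D4:**
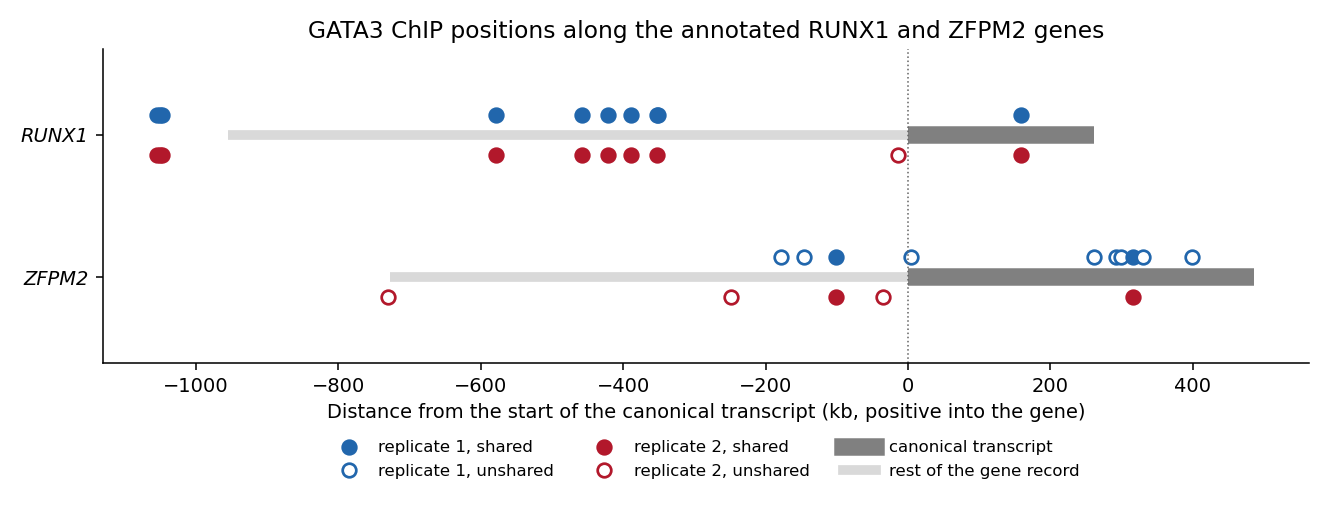
GATA3 positions along the annotated RUNX1 and ZFPM2 genes (x axis, kb from the canonical start, positive values into the gene), replicate 1 above and replicate 2 below, filled where shared. Dark bars are canonical transcripts and pale bars the rest of the gene records. At RUNX1 9 of 10 positions are filled in each replicate, and at ZFPM2 2 of 10 and 2 of 5.

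CBFB (chromosome 16, 67028984 to 67101058, plus strand), the partner of RUNX1, had no position in its window. The nearest in replicate 1 lay 149 kb upstream of its 5′ end and the nearest in replicate 2 lay 306 kb downstream, where the nearest shared region was too.

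Across the 17 shared regions, 6 stood in introns of the canonical transcript, 6 in the gene body outside it, 4 upstream of the gene and 1 downstream. None was in an exon of the canonical transcript, which an exact 95% interval limits to at most 19.5%. Exons of other transcripts were not checked. For 11 of 17 regions (64.7%, 38.3 to 85.8) the nearest protein-coding 5′ end was that of the gene itself. At RUNX1 and ZFPM2 such regions lay 376 to 626 kb from that end. The shares by place and by nearest 5′ end were not computed over all shared regions, so they are not read as traits of these genes. Promoters of 300 bp, from 250 bases before to 50 after the start, were found in RefSeq (GRCh38) for 6 of the 9 genes, as 8 promoters. In them lay 0 positions of either replicate. The share of all promoters that hold a position was not counted, so this 0 is not read as a trait of these genes. A hexamer was present in 2 of the 8 promoters, against 25% of all 35116 promoters listed. The authors' annotation named a member at 3 positions of replicate 1 and 4 of replicate 2, at ZFPM1 and LMO4 only. Replicate positions within the regions were a median of 20 bp apart (0 to 98), against 23 bp over all shared regions. The 4031 kb of windows held 4.22 shared regions per Mb, against 3.11 per Mb of the chromosomes without gaps. This pooled value rests largely on RUNX1, which held 9 of the 17 regions at 6.83 per Mb. ZFPM2, with a window of nearly the same length, had 1.52 per Mb, and single genes ran from 0 to 10.0 per Mb.

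The GATA hexamer was present in 15 of the 17 windows (88.2%, exact 95% interval 63.6 to 98.5), against 82% of all 9145 shared regions. In windows of the same length 1 kb to either side it was present in 9 of 34 here and in 34.8% around all regions, and in 12.5% of windows at the 5′ ends of protein-coding genes. The AGATAA form was in 7 windows (41.2%, 18.4 to 67.1), against 51.6% of all regions, and the core GATA, which the hexamer contains, in 16 (94.1%), against 92.6%. The hexamers read backwards (A or G, then ATAG, then A or T, which can overlap a hexamer) were in 3 windows (17.6%), against 32.6%. At least 2 hexamers were in 6 of the 17 windows (35.3%), against 34.6%. The nearest hexamer was a median of 20.5 bp from the centre (2.5 to 64.5) in the 15 windows and within 50 bp in 14 of them. Among the 7498 shared regions anywhere that held a hexamer, the median was 17.5 bp and 88.1% had it within 50 bp. The members' windows thus held the hexamer about as often, and about as close to the centre, as shared regions anywhere. Unshared positions held a hexamer in 11 of 17 at these genes in replicate 1 (64.7%) and 7 of 10 in replicate 2 (70%), against 72.9% and 67% of all unshared positions.

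**Figure D5:**
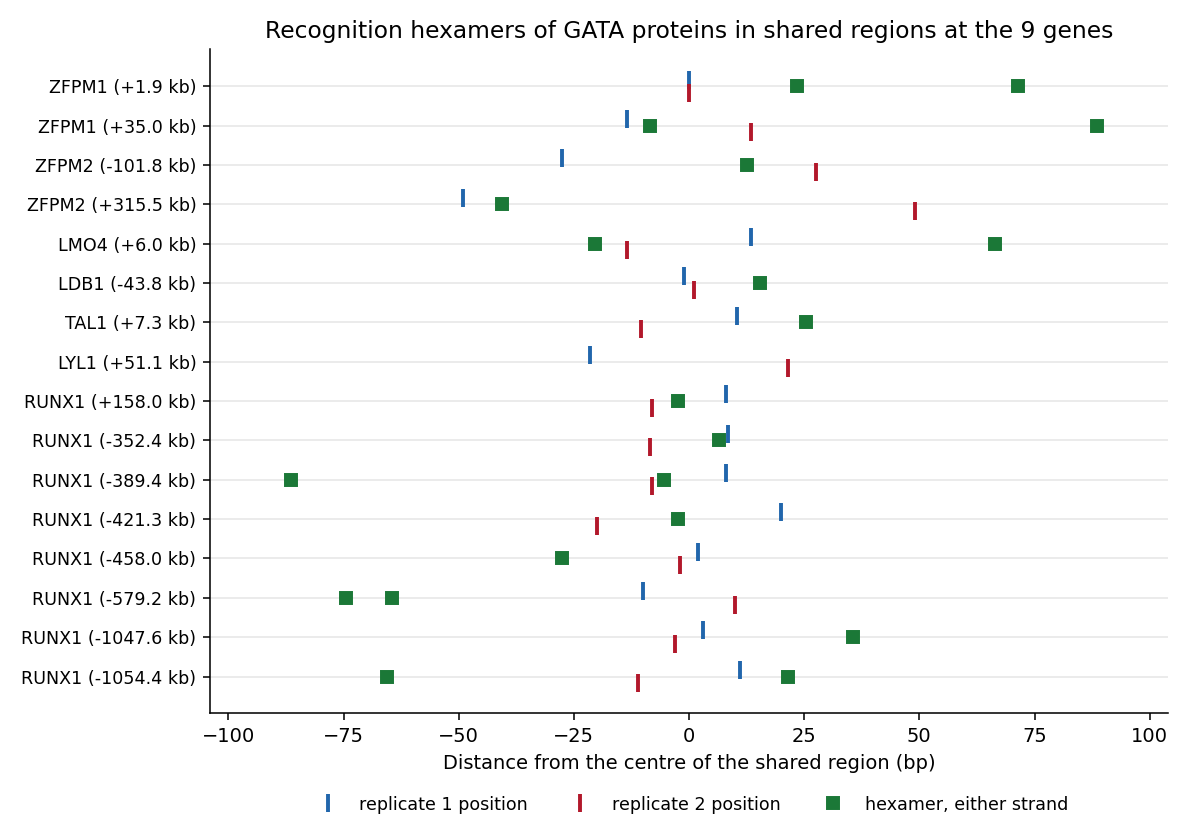
Distance in bp from the centre of each shared region (x axis) to every GATA hexamer (green) and to the replicate 1 (blue) and replicate 2 (red) positions, with each region named by its gene and distance from the canonical start. Of the 17 regions 16 are drawn. A hexamer lies within 50 bp of the centre in 14 of the 17, and 2 of the 17, the LYL1 region among them, have none.

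Motifs of the partner proteins were counted in the same windows on both strands. An E-box (CANNTG), bound by TAL1 and LYL1 with E proteins, was present in 7 of 17 (41.2%, 18.4 to 67.1), against 65.7% of all shared regions and 63% of their flanks. The TG with 7 or 8 bases before GATA was present in 1 of 17 (5.88%, 0.149 to 28.7), against 28% of all regions and 14.2% of flanks. With other spacings not searched, these shares do not count joint sites of TAL1 and GATA proteins. TGTGGT was present in 2 of 17 (11.8%, 1.46 to 36.4), against 13.8% and 12.4%, at ZFPM1 and TAL1. Matches are descriptions of letters and no test was made of these shares. GC content ran from 35 to 68.5% with a median of 46.5%, against a median of 44% over all regions.

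A further list of 28 genes held subunits of the NuRD and CtBP corepressors that FOG proteins recruit, and other LIM-only, LDB, SSBP, E-protein, RUNX and ETO-family genes. Of these, 16 had a shared region (57.1%, exact 95% interval 37.2 to 75.5), 19 had a replicate 1 position (67.9%) and 18 a replicate 2 position (64.3%). These compare with the 47.7%, 68.7% and 57.3% of protein-coding genes above, each within the interval of the list. MTA2, a NuRD subunit, had 6 positions in replicate 1, 5 in replicate 2 and 5 shared regions within 100 kb of its 5′ end. TCF12, an E protein, had 7, 5 and 4 in a window of 481 kb, and LDB2, the relative of LDB1, had 14, 5 and 3 in 497 kb. These are the 3 genes of the list with most shared regions. Their counts were not set against genes with windows of like length. Whether other genes lay nearer to their regions was not examined. Among relatives of the 9 genes that had no shared region, LMO1 and TAL2 had no position, and LMO3 had 1 in replicate 1. RUNX3, named after its values were seen, had 1 position in each replicate and no shared region by its gene record, and 1 by the canonical transcript. RUNX2, also named after its values were seen, had 2 positions in replicate 1, 4 in replicate 2 and 2 shared regions in 436 kb.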

How the data were processed

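The methods of the study name cutadapt for adapters, bowtie for alignment to hg38 and Picard for duplicates. The authors then left out reads with several alignments and the ENCODE blacklist, and ran MACS2 on every ChIP sample with the matching input. Their deposited lists hold, for each peak, a chromosome position and a gene name. The lists have 18545 lines in replicate 1 and 12870 in replicate 2. These differ from the peak numbers that the paper gives for its replicates, and no reason was stated. The start and end columns were equal, and neither the way a peak became a position nor counting from 0 or 1 was stated, so positions are printed as deposited. Depth cannot be read from these files, and exact (Clopper-Pearson) intervals cover counting error only.

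Repeated lines (7 and 5) were counted once, and 82 and 83 positions on scaffolds were left out. The sequence and details of 1 RUNX1 region are not reported here. Genes, canonical transcripts and 5′ ends came from GENCODE release 44, and windows of 200 bp from hg38. A gene was counted as having a region by the rule in the opening. The design has 1 group of 2 ChIP replicates, so no test between conditions was made. All 9 genes are named, with all of their shared regions but 1. Of the further list, the 3 genes with most regions, the relatives without one and RUNX2 are named. Members and lists were chosen with earlier results of these data known. Python 3.11.15, numpy 2.4.6, scipy 1.17.1 and matplotlib 3.10.9 were used, and the counting steps were tested on simulated data. Alternatives to the joining distance, gene distance, gene model, replicates and motif were tried.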

Additional observations from a re-analysis of the deposited data

How the results depend on the processing

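The count of shared regions at the 9 genes rests on the gene model. It was 17 by the gene record, 8 with the canonical transcript, 9 without the gene body and 11 where a region went only to the protein-coding gene with the nearest 5′ end. With all positions of 1 replicate in place of shared regions it ranged from 27 to 34. At RUNX1 it was 1 with the canonical transcript, 3 without the gene body and 5 by the nearest gene. ZFPM2 had 0 shared regions when positions had to lie within 50 bp, TAL1 had 2 at 250 bp and LMO4 had 2 at 500 bp. LYL1 had 0 within 50 kb of the 5′ end and LDB1 0 within 25 kb. The genes with a shared region numbered 5 to 7 of 9 over all alternatives run, against 21.7 to 68.7% of protein-coding genes. That share lay within the exact 95% interval of the 9 genes except by the nearest gene, where 6 of 9 (29.9 to 92.5%) stood beside 21.7%. The share of windows with a hexamer was 88.2% (82% of all shared regions), and 41.2% with AGATAA alone (51.6%). The order against all shared regions thus changed with the motif, though both background shares lay within the exact intervals of the 17 windows. RUNX1 had more shared regions than ZFPM1 by the gene record (9 against 2) and fewer with the canonical transcript (1 against 2). No paired analysis was possible because the 2 ChIP replicates form a single group and no result comes from a test. Peak heights, widths and depth were not in these lists, so strength of binding could not be compared between genes or replicates.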
